A study of Homo sapiens with 18 samples.

Results

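Replication-dependent histone genes were taken as the gene symbols for *H1-1* to *H1-6* and for the numbered gene series *H2AC*, *H2BC*, *H3C* and *H4C*. A total of 66 of the 40266 genes in the table met this rule, namely 6 H1, 16 H2A, 17 H2B, 13 H3 and 14 H4 genes. The RNA sequencing compared 2 cell lines of pancreatic ductal adenocarcinoma, mesenchymal-like Panc1 cells from a primary tumor and epithelial Panc89 cells from a lymph node metastasis. Each line was measured as untreated parental cells, as Holoclone cells and as Paraclone cells, with 3 libraries for each of these 6 groups. Holoclone and Paraclone cells had been expanded from single cells and kept for the shape of their colonies, tight for Holoclones, which are held to be rich in cancer stem cells, and loose for the more differentiated Paraclones. Every Holoclone or Paraclone group therefore rests on clonal cells, so that the colony type and the history of a clone cannot be told apart. The 3 replicates of a group were different passages of the same cells, so p-values measure the spread between passages and do not cover other clones. Most but not all markers of the lines matched their labels. *CDH1* (E-cadherin, an epithelial adhesion molecule) was at 75.3 ± 2.32 TPM (a transcript's length-corrected share of the reads, comparable between genes, as mean ± SD, n = 3) in parental Panc89 cells, against 1.35 ± 0.569 TPM in parental Panc1. *VIM* (vimentin, a mesenchymal filament) was at 0.0653 ± 0.0374 and 3779 ± 675 TPM. In the test described below, 4 of 6 epithelial markers were higher in parental Panc89 than in parental Panc1 cells. The keratin gene *KRT8* was lower (log2 fold change -0.83) and *KRT18* did not pass. Of 4 mesenchymal-like markers, 3 were lower and *CDH2* did not pass. Of all tested genes, 27.5% were higher and 38.5% lower.

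Replication-dependent histone genes make the core histones H2A, H2B, H3 and H4, around which DNA is wound into nucleosomes, and the linker histone H1, which binds the DNA between them. They are transcribed mainly while DNA is copied in S phase. Their messages usually end in a conserved stem-loop, bound by the stem-loop binding protein SLBP, in place of a poly(A) tail, but several of these genes also give polyadenylated transcripts, which have been described in differentiating and tumor cells. The libraries were made with a kit that selects poly(A) RNA, so that the levels given here describe polyadenylated histone transcripts and carry-over of other histone RNA, and are no measure of total histone mRNA.

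The stem-loop letters at which histone transcripts are usually cut are shown for genes that carry the results, because a transcript that is polyadenylated either ends near this element or runs past it. Letters fitting the histone stem-loop consensus were present within 150 bases after the stop codon of all 66 genes (GRCh38 with GENCODE release 44; a match describes letters and is no proof of use). The bases of both stem arms are in capitals, and the loop is in lower case.
H1-2 (chr6:26055744-26055759, minus strand): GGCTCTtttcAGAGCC
H2AC6 (chr6:26124669-26124684, plus strand): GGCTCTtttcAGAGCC
H2BC12 (chr6:27146366-27146381, minus strand): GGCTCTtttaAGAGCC
H2AC11 (chr6:27133515-27133530, plus strand): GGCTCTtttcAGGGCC
H4C8 (chr6:26285131-26285146, minus strand): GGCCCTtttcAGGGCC
H4C12 (chr6:27831178-27831193, minus strand): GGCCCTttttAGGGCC
The form of *H1-2* and *H2AC6* was found in 38 genes and that of *H2BC12* in 9, the form of *H4C8* in 9 and that of *H4C12* in 4, and the form of *H2AC11* in no other member.

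Most H2A genes lie head to head with an H2B gene and share the sequence between the starts. For 12 pairs of members, the starts were transcribed away from each other within 1000 bases, for example *H2BC4* and *H2AC6* at 246 bases, *H2BC8* and *H2AC8* at 233 and *H2BC11* and *H2AC11* at 248. The 250 bases before the start are given for *H2AC6*, for *H2AC11* and for *H2BC12*, since the pair of *H2AC6* followed most other members below, *H2AC11* did not, and *H2BC12* had the highest level (RefSeq, GRCh38.p14; chr6:26123922-26124171, plus strand; chr6:27132793-27133042, plus strand; chr6:27146859-27147108, minus strand). Capitals mark 3 motifs read on both strands, the octamer ATTTGCAT, CCAAT and TATAAA, and letters of overlapping matches run together.
H2AC6: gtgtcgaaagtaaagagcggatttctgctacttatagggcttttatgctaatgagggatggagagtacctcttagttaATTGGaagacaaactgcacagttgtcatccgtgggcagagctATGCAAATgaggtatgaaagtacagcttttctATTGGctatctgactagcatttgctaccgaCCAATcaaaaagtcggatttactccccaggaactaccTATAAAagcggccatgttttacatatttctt
H2AC11: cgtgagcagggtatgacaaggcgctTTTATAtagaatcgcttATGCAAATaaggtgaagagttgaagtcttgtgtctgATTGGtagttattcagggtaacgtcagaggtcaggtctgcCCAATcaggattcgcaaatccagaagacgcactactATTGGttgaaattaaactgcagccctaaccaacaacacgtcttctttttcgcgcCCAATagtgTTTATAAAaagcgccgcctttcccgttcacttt
H2BC12: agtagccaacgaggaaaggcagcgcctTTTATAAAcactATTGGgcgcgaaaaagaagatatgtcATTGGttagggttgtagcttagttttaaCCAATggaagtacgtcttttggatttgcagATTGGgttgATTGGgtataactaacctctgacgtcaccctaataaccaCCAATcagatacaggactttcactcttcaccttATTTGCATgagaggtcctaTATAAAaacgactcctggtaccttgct
Promoter windows of 300 bases, which add 50 bases after the start, were found for 61 members. The octamer was in 42.6% of them against 1.77% of all 35116 promoter windows, in 82.4% of H2B and 73.3% of H2A windows, in 9.09% of H3 windows and in no H1 or H4 window. CCAAT was in 85.2% of member windows against 34.6% of all, and TATAAA in 67.2% against 11.5%. All 3 motifs were present before both *H2AC6* and *H2AC11*, and nothing about the factors that bind them follows from these letters.

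All 66 members matched an annotated gene. On chromosome 6, 55 lay between positions 25723397 and 27893891, and on chromosome 1, 11 lay between 149782689 and 149887965. An annotated transcript ran over 100 bases past the stem-loop in 14 members, of which 12 passed the filter of at least 1 TPM in at least 3 of the 18 libraries, with a median of 9.92 TPM over the members' means. Among the other 52 members, 29 passed, with a median of 0.678 TPM. Yet *H2BC12*, *H2AC19* and *H1-2*, 3 of the most abundant members, had no such longer annotated transcript. Copies of these genes are very alike. Of the 31-base words in the *H2AC19* transcripts, 0.198% occurred in no other gene, and 99.8% were shared with *H2AC18*, which was listed at 1.70 TPM or less. The unique share was 0 for *H4C15* and *H3C15*, 7.0% for *H4C12*, 29.0% for *H2BC12* and 35.1% for *H2AC13*, but 84.5% for *H2BC5* and over 98% for *H1-2*, *H2AC6* and *H2AC8*. How reads were divided among such copies is uncertain, and *H3C14* and *H3C15* had the same value in each library. *H2BC12* shared 61.9% of its words with a gene model outside the members that has an identifier only, and *H2AC17* shared 69.1% with *H3C12*, a member of another family, so family sums can depend on that division too.

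Of the 66 members, 41 passed the filter and were tested, 4 of 6 H1, 10 of 16 H2A, 12 of 17 H2B, 9 of 13 H3 and 6 of 14 H4 genes. The other 25 reached at most 1.81 TPM in any library, and *H2AC1* and *H2BC1* were listed at 0 in all of them. A total of 19 members passed within each line on its own, 21 through the Panc89 libraries only and *H2AC11* through the Panc1 libraries only. Members that passed through 1 line only were tested because of their level there, so counts over the tested members describe these and not the family. The replicates of a group correlated with r between 0.954 and 0.992 across the 16093 tested genes, which are no independent replicates. The Panc89 Paraclone library of replicate 2 stood apart, with r = 0.954 and 0.969 to its replicates against 0.985 between the other 2. In Panc89 Holoclone cells, replicate 1 had r = 0.978 and 0.962 to its replicates, against 0.989 between those. Summed TPM of 39 genes of S phase and DNA replication was 591, 2327 and 709.6 in the 3 Panc89 Paraclone libraries, highest in replicate 2. The same sum was 3186, 1431 and 898 in Panc89 Holoclone libraries, highest in replicate 1. It was 1283, 2773 and 1339 in parental Panc1 and 2659, 1170.3 and 921 in Panc1 Paraclone libraries, so that passages of the same cells differed widely. Depth per library was unknown, since TPM keeps no read counts.

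Summed over all 66 members, the histone transcripts were several-fold more abundant in parental Panc89 and Panc89 Paraclone cells than in any other group. Parental Panc89 libraries held 2524, 1636 and 2179 summed TPM and Panc89 Paraclone libraries 2148, 1615 and 1918. In Panc89 Holoclone cells, the sums were 862, 627 and 769.5. Every Panc89 Holoclone library was thus below every other Panc89 library and above every Panc1 library. Panc1 sums were 420.1, 269.9 and 402 in parental, 487, 299.5 and 413 in Holoclone and 290.0, 364 and 354 in Paraclone cells, and these 3 groups overlapped. The ratio of the group means was 5.80 for parental Panc89 over parental Panc1, 0.398 for Panc89 Holoclone over Panc89 Paraclone and 1.19 for Panc1 Holoclone over Panc1 Paraclone cells. Because the RNA came from whole cultures, less transcript per cell and fewer cells with the transcript cannot be told apart.

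**Figure D1:**
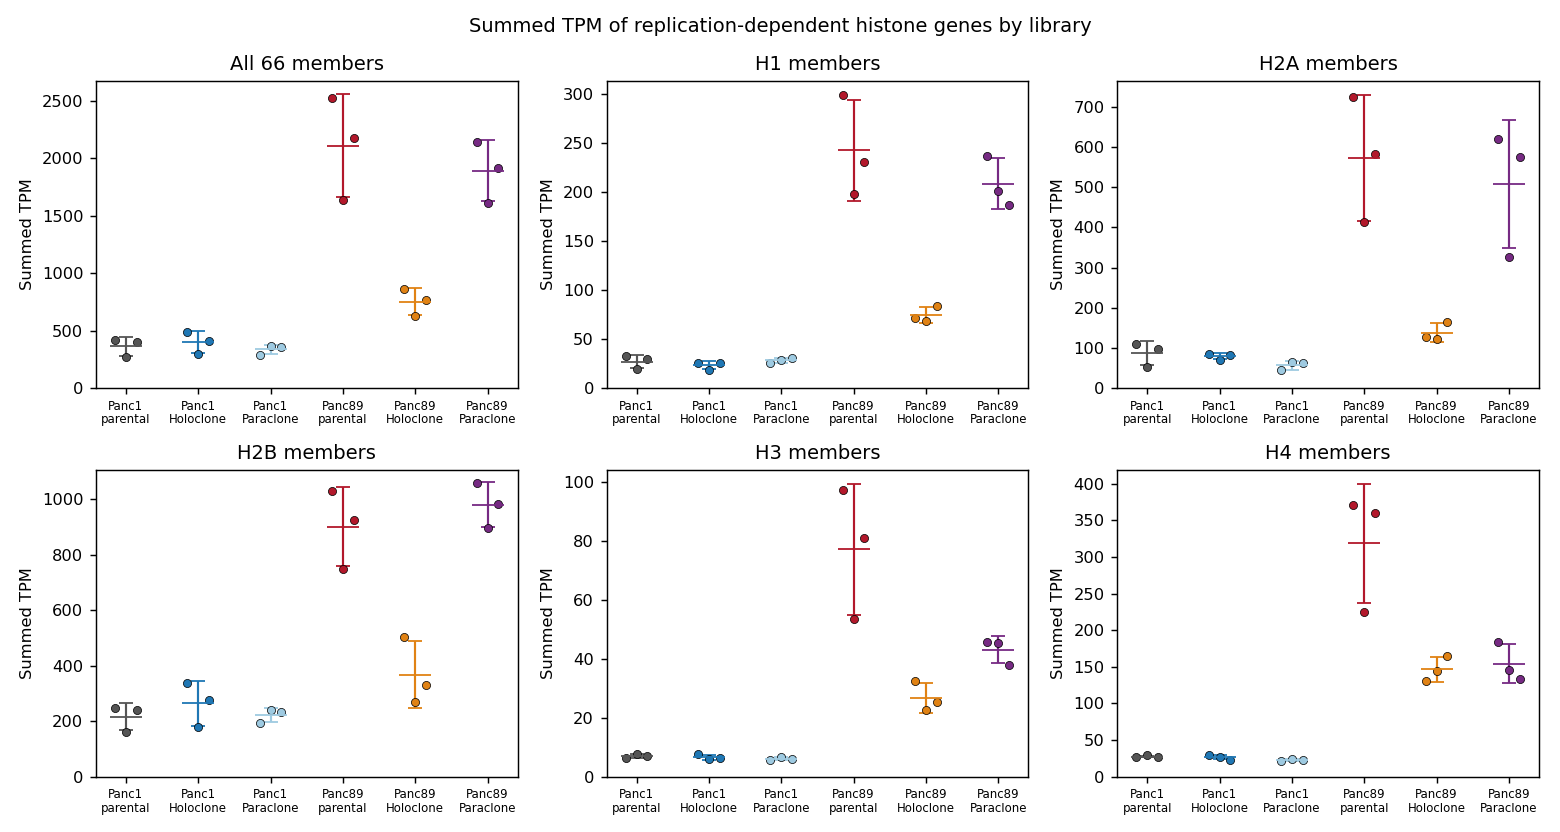
Summed TPM of the 66 members and of the H1, H2A, H2B, H3 and H4 members, with the group on the x axis and summed TPM from 0 on the y axis. Points are libraries, the long bar is the mean and the whiskers are ± SD (n = 3). Panc89 Holoclone cells lie below parental Panc89 and Panc89 Paraclone cells for H1, H2A, H2B and H3, whereas for H4 both Panc89 clones lie together, below the parental cells.

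The families did not share 1 pattern. H2A transcripts summed to 508 ± 159 TPM in Panc89 Paraclone and 138 ± 23.2 TPM in Panc89 Holoclone cells, a ratio of 0.272 for Holoclone over Paraclone. The ratio was 0.357 for H1, 0.375 for H2B and 0.622 for H3. For H4, the sums were 318 ± 81.7 TPM in parental Panc89, 146 ± 17.4 TPM in Panc89 Holoclone and 154 ± 26.3 TPM in Panc89 Paraclone cells, so that both clones were below the parental cells and did not differ beyond their spread, with a ratio of 0.948. Between the parental lines, the ratio of Panc89 over Panc1 was 11.6 for H4, 11.1 for H3, 9.01 for H1, 6.66 for H2A and 4.16 for H2B. H2B genes made up 42.6% of the member TPM of parental Panc89 cells, against 59.5% for parental Panc1, and H4 genes 15.1% and 7.53%. In Panc89 Holoclone cells, the H4 share was 19.4%, against 8.14% in Panc89 Paraclone cells.

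Few genes carried most of this RNA. *H2BC12* was the most abundant member in each of the 6 groups, with 21.8% of the member TPM in parental Panc89 and 47.8% in Panc1 Paraclone cells. In 5 of the 6 groups the 5 leading members were *H2BC12*, *H2AC19*, *H2BC5*, *H1-2* and *H2AC6*. In Panc89 Holoclone cells *H4C14* took the second place with 9.02%, and *H2AC6* was not among the 5. The 5 leading genes held between 64.8% of the member TPM in parental Panc89 and 81.2% in Panc1 Paraclone cells.

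**Figure D2:**
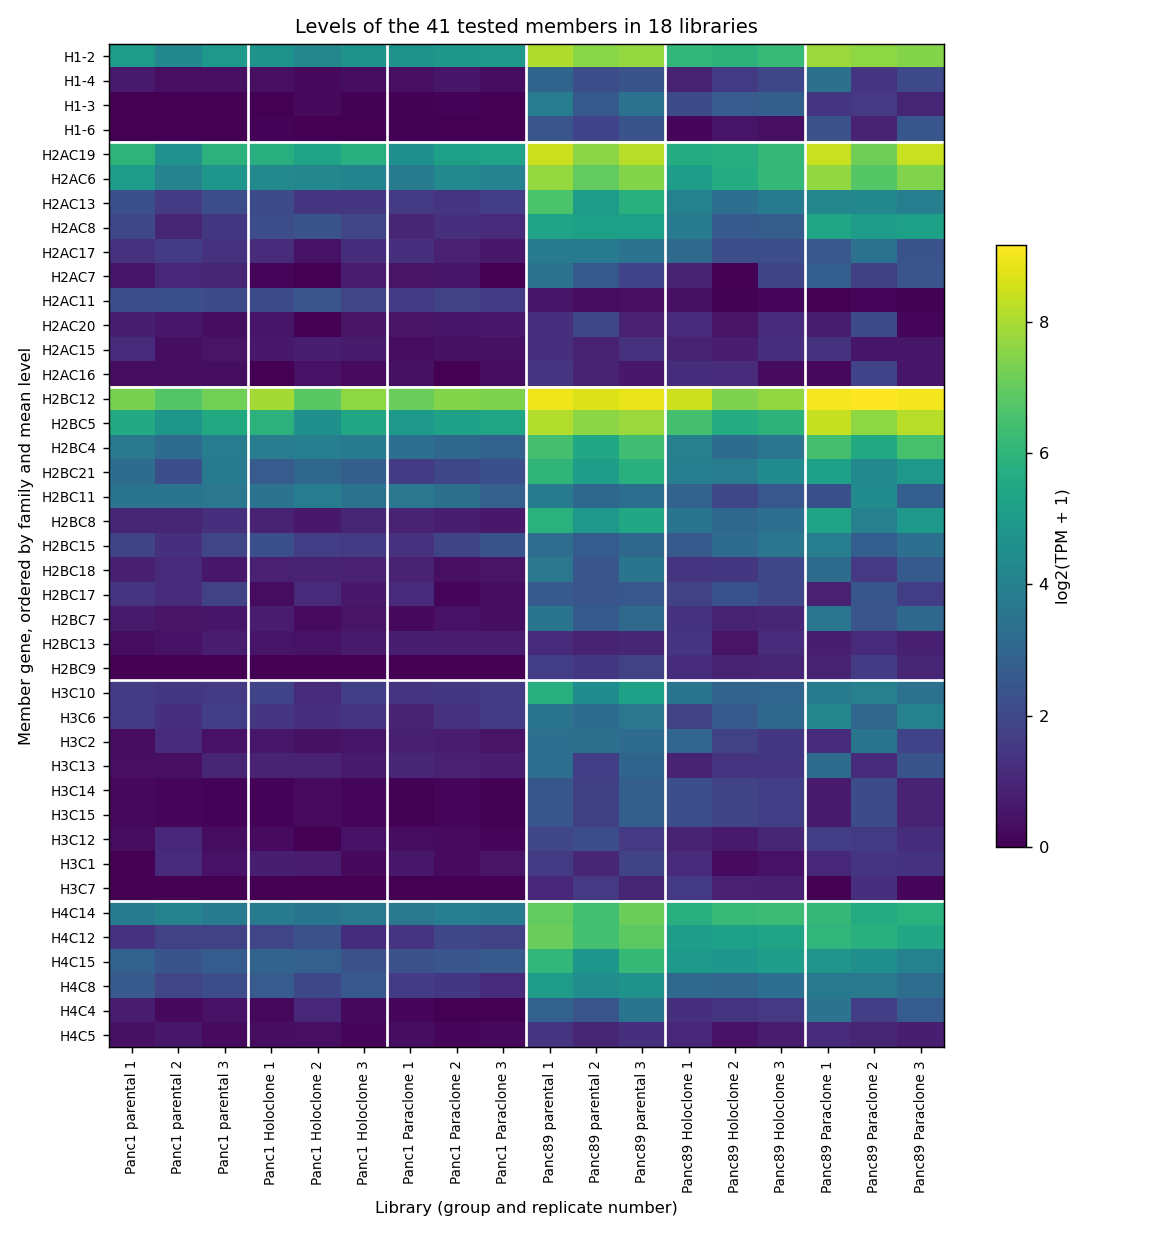
Levels of the 41 tested members (rows, ordered by family and mean level) in the 18 libraries (columns, by group and replicate number), as log2(TPM + 1) by color. The brightest rows are *H2BC12*, *H2AC19* and *H2BC5*, the parental Panc89 and Panc89 Paraclone columns are brighter than the Panc89 Holoclone columns for most H2A and H2B rows, and *H2AC11* is brighter in Panc1 than in Panc89 libraries.

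First, the parental lines were compared, which asks how the transcripts differ between an epithelial and a mesenchymal-like tumor cell line. Of the 41 tested members, 36 were higher and 1 was lower in parental Panc89 than in parental Panc1 cells (limma with trend, Benjamini-Hochberg over 16093 genes, adjusted p under 0.05), where 27.5% of all tested genes were higher and 38.5% lower. Among the 20 members at a mean of 1 TPM or more in both parental groups, 19 were higher and none was lower. The median log2 fold change, on the log2(TPM + 1) scale, was 2.21 over the tested members and -0.18 over all tested genes. That scale understates the change of low genes. With median-of-ratios scaling, 34% of all genes were higher and 31.3% lower, and 38 members were higher and 1 lower.

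Of the H1 genes, *H1-2*, the most abundant linker histone transcript here, was at 274, 186 and 212 TPM in the 3 parental Panc89 and at 31.7, 18.3 and 28.7 TPM in the 3 parental Panc1 libraries (log2 fold change 3.07 ± 0.20 (SE), adjusted p = 1.43e-09). *H1-4* reached 6.74, 3.46 and 4.06 TPM in Panc89 and 0.565, 0.298 and 0.310 TPM in Panc1 cells (log2 fold change 2.01 ± 0.38 (SE), adjusted p = 0.000204). The groups did not overlap for either linker gene, but *H1-4* passed the filter through the Panc89 libraries only. Here and below, the share of all genes with separate groups was not counted. *H1-3* and *H1-6*, the testis-enriched linker gene, were listed at 0 in every parental Panc1 library and at 13.4, 4.71 and 9.68 TPM and 4.40, 2.60 and 4.13 TPM in parental Panc89 cells, and no fold is given for them. *H1-1* and *H1-5* were not tested, with at most 0.497 TPM in any library.

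Among the H2A genes, 6 of the 10 tested were higher, 1 was lower and 3 did not pass. *H2AC19* was at 349.9, 193 and 296 TPM in parental Panc89 and 61.6, 24.1 and 58.5 TPM in parental Panc1 libraries (log2 fold change 2.59 ± 0.37 (SE), adjusted p = 1.47e-05). *H2AC13* rose from 3.06 ± 0.896 TPM to 60.9 ± 30.9 TPM and *H2AC8* from 1.90 ± 0.999 TPM to 37.7 ± 1.89 TPM (log2 fold changes 3.83 and 3.80, adjusted p = 2.18e-08 and 6.72e-09). *H2AC6* was higher as well (log2 fold change 2.74), and so were *H2AC17* and *H2AC7*, of which *H2AC7* passed the filter through the Panc89 libraries only. The exception was *H2AC11*, at 0.421, 0.226 and 0.305 TPM in parental Panc89 and 3.59, 3.72 and 3.40 TPM in parental Panc1 libraries (log2 fold change -1.80 ± 0.14 (SE), adjusted p = 2.16e-08). All Panc1 libraries of every variant were above all Panc89 libraries for this gene, which passed the filter through the Panc1 libraries only.

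Of the 12 tested H2B genes, 11 were higher. Among them, *H2BC7*, *H2BC8*, *H2BC9*, *H2BC13* and *H2BC18* passed the filter through the Panc89 libraries only, so their direction was largely set by it. *H2BC12* was at 490.3, 416 and 475 TPM in parental Panc89 and 160.0, 105 and 148 TPM in parental Panc1 libraries (log2 fold change 1.75 ± 0.27 (SE), adjusted p = 3.28e-05). *H2BC8*, the head to head neighbor of *H2AC8*, rose from 0.941, 0.955 and 1.42 TPM to 56.9, 28.5 and 43.9 TPM (log2 fold change 4.34 ± 0.29 (SE), adjusted p = 2.17e-09). The groups were far apart for both genes. *H2BC5*, *H2BC4*, *H2BC21* and *H2BC7* rose by log2 fold changes of 2.49, 2.51, 2.58 and 2.54. *H2BC15* and *H2BC18* rose by 1.32 and 2.38, also as log2 fold changes. *H2BC11*, the neighbor of *H2AC11*, was at 13, 7.30 and 9.0 TPM in parental Panc89 and 10.6, 10.6 and 11.4 TPM in parental Panc1 libraries and did not pass the test (log2 fold change -0.17 ± 0.42 (SE), adjusted p = 0.731).

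All 9 tested H3 and all 6 tested H4 genes were higher in parental Panc89 cells. Of these, only *H3C10*, *H3C6*, *H4C8*, *H4C12*, *H4C14* and *H4C15* passed the filter within each line. The others passed through the Panc89 libraries only, so their direction was largely set by the filter. *H3C14* and *H3C15*, with the same values, are counted as 2. *H3C10* was at 53.3, 21.1 and 37.0 TPM against 2.02, 1.83 and 1.94 TPM in parental Panc1 libraries (log2 fold change 3.61 ± 0.27 (SE), adjusted p = 1.11e-08), and *H3C2* and *H3C6* rose by log2 fold changes of 2.70 and 1.94. *H4C12* was at 136, 84.7 and 116 TPM against 1.45, 2.46 and 2.55 TPM (log2 fold change 5.16 ± 0.25 (SE), adjusted p = 6.35e-11), the largest fitted change of a tested member. *H4C14* was at 125, 83.1 and 137 TPM against 12.5, 16.1 and 12.9 TPM (log2 fold change 2.94 ± 0.19 (SE), adjusted p = 1.39e-09). *H4C15* and *H4C8* rose by log2 fold changes of 3.05 and 2.55. Most of what is listed for *H4C12* can be shared with *H4C11*, and most of what is listed for *H4C14* and *H4C15* with each other.

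**Figure D3:**
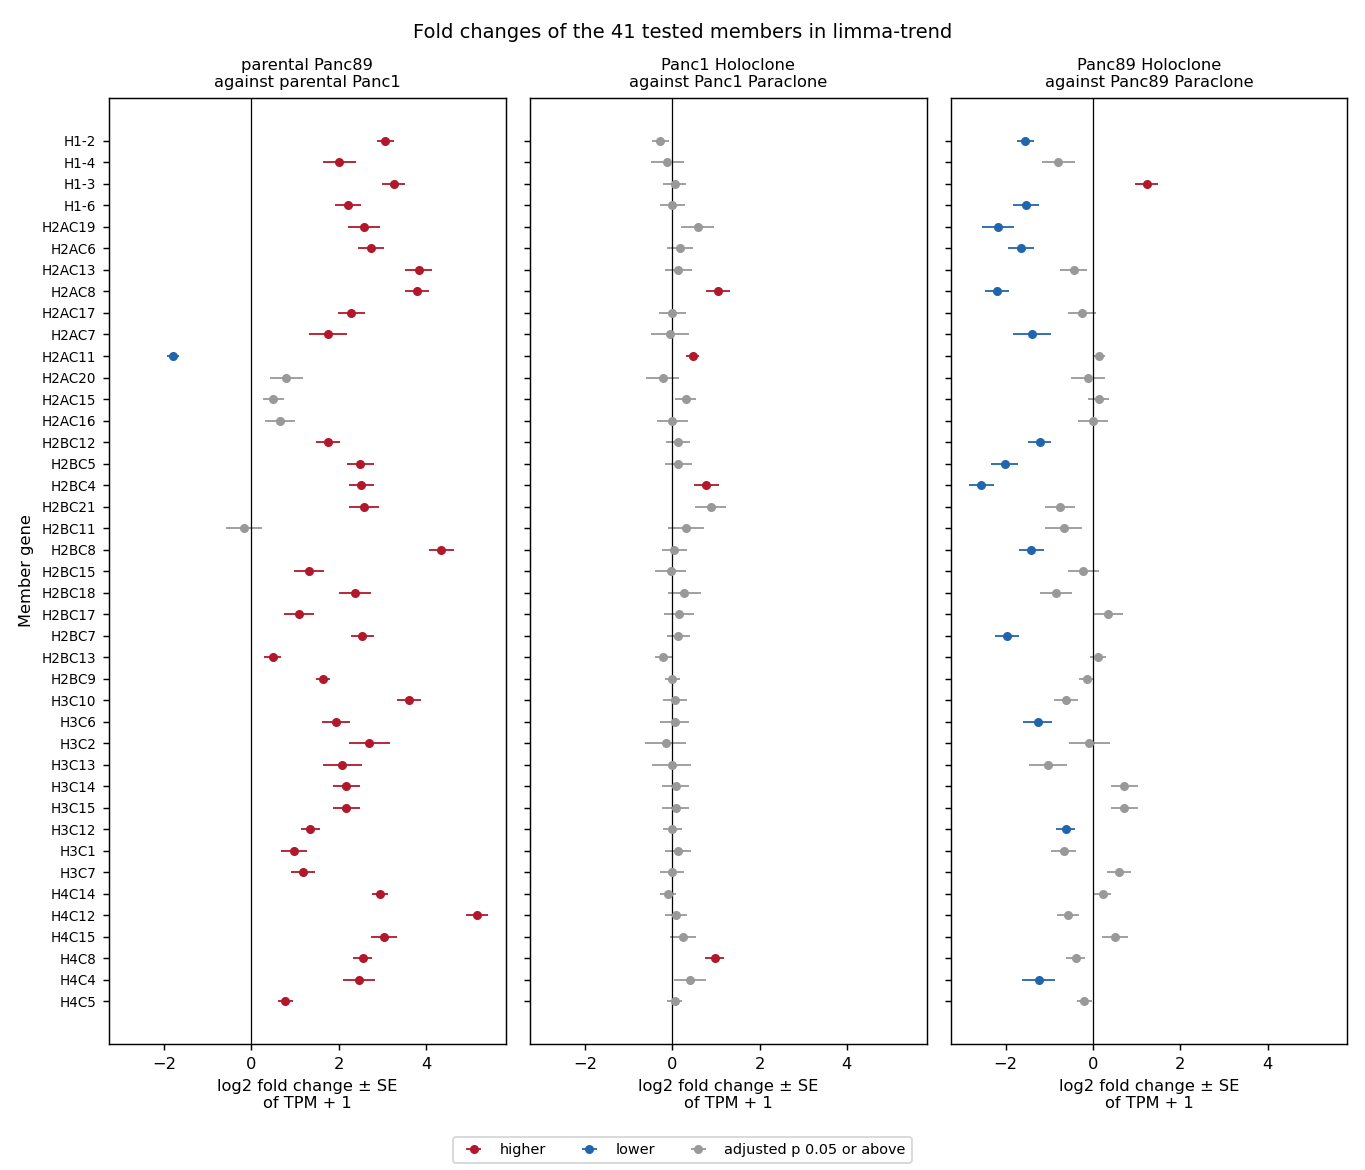
Log2 fold changes of TPM + 1 with standard errors for the 41 tested members, ordered by family and mean level, in 3 comparisons; red is higher, blue lower and gray an adjusted p of 0.05 or above. The points lie mostly right of 0 between the parental lines (36 higher) and near 0 between the Panc1 clones (4 higher). Between the Panc89 clones, 14 members over all families are lower, and the H2A and H2B points lie mostly left of 0. *H1-3*, *H1-6*, *H2BC9* and *H3C7* are at 0 in parental Panc1 cells, so their change in the left panel depends on the added 1.

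Next, Holoclone and Paraclone cells were compared within Panc89. In Panc89 Holoclone cells, 14 of the 41 tested members were lower and 1 was higher than in Panc89 Paraclone cells, where 13.3% of all tested genes were lower and 22.4% higher. With median-of-ratios scaling, 18.7% of all genes were lower and 18.2% higher, and 17 members were lower and 1 higher. The median log2 fold change was -0.61 over the tested members and 0.09 over all tested genes. Among the 31 members at 1 TPM or more in both groups, 12 were lower and 1 was higher. The lower genes were 2 of 4 tested H1, 4 of 10 H2A, 5 of 12 H2B, 2 of 9 H3 and 1 of 6 H4 genes. Without the Panc89 Paraclone library of replicate 2, 17 members were lower and 4 higher, the latter being *H1-3*, *H3C14*, *H3C15* and *H3C7*. In that fit, 14.1% of all genes were lower and 26.9% higher. Without the Panc89 Holoclone library of replicate 1, 16 were lower and 1 was higher, beside 16.5% and 19.9% of all genes.

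The linker histone genes split. *H1-2* was at 66.3, 60.5 and 74.6 TPM in the 3 Panc89 Holoclone and 222, 196 and 178 TPM in the 3 Panc89 Paraclone libraries (log2 fold change -1.55 ± 0.20 (SE), adjusted p = 1.73e-05). *H1-6* was at 0.104, 0.446 and 0.309 TPM and 3.89, 0.879 and 4.54 TPM (log2 fold change -1.54 ± 0.29 (SE), adjusted p = 0.000721). *H1-3* went the other way, with 3.43, 5.15 and 5.82 TPM in Holoclone and 1.62, 1.86 and 0.926 TPM in Paraclone libraries (log2 fold change 1.23 ± 0.26 (SE), adjusted p = 0.00168). The 2 groups did not overlap for any of these 3 called genes, which adds no support to the test on the same values. *H1-4* did not pass the test (log2 fold change -0.79, adjusted p = 0.116).

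For H2A, *H2AC19* was at 50.7, 51.6 and 68.8 TPM in Panc89 Holoclone and 343, 147 and 340.4 TPM in Panc89 Paraclone libraries (log2 fold change -2.17 ± 0.37 (SE), adjusted p = 0.000282). *H2AC6* was at 34.2, 50.6 and 68.4 TPM and 205, 108 and 174 TPM (log2 fold change -1.66 ± 0.30 (SE), adjusted p = 0.000448). *H2AC8* was at 12.5, 5.02 and 5.53 TPM and 42.2, 31.6 and 36.1 TPM (log2 fold change -2.21 ± 0.28 (SE), adjusted p = 1.59e-05). The groups were separate for all 3 called genes, which adds no support to the test on the same values. The Paraclone library of replicate 2 was the lowest of its group each time. *H2AC7*, which shares 84.6% of its 31-base words with another gene model, was lower too (log2 fold change -1.39, adjusted p = 0.0206), a call lost in 5 of 14 alternative fits. *H2AC13* and *H2AC17* did not pass, with log2 fold changes of -0.44 and -0.25.

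For H2B, *H2BC12* was at 352, 169 and 205 TPM in Panc89 Holoclone and 525, 579.8 and 512 TPM in Panc89 Paraclone libraries (log2 fold change -1.22 ± 0.27 (SE), adjusted p = 0.00233). *H2BC5* was at 88.9, 50.9 and 59.5 TPM and 329, 194 and 292 TPM (log2 fold change -2.02 ± 0.31 (SE), adjusted p = 0.000123). *H2BC4* was at 15.0, 8.48 and 11.3 TPM and 86.9, 46.9 and 90.6 TPM (log2 fold change -2.56 ± 0.29 (SE), adjusted p = 5.26e-06), the largest fitted decrease of a tested member. The groups did not overlap for any of these 3 called genes, although Holoclone replicate 1 of *H2BC12* came near. This adds no support to the test on the same values. *H2BC7* and *H2BC8* were lower by log2 fold changes of -1.97 and -1.41. *H2BC11* was at 6.65, 2.91 and 4.59 TPM in Holoclone and 3.75, 20.3 and 5.68 TPM in Paraclone libraries, where replicate 2 stood far above the others, and did not pass (adjusted p = 0.232). *H2BC21* did not pass either (log2 fold change -0.75, adjusted p = 0.111).

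Of the H3 genes, *H3C6* was at 2.55, 4.95 and 7.67 TPM in Panc89 Holoclone and 18.2, 7.12 and 15.4 TPM in Panc89 Paraclone libraries, and the groups overlapped (log2 fold change -1.27 ± 0.33 (SE), adjusted p = 0.00657). *H3C12* was lower by a log2 fold change of -0.62 (adjusted p = 0.0335), a call that was lost in 6 of 14 alternative fits. *H3C10* did not pass (log2 fold change -0.61, adjusted p = 0.0965). *H3C2* was at 7.05, 2.49 and 1.77 TPM in Holoclone and 1.2, 10.7 and 2.64 TPM in Paraclone libraries, and again the Paraclone library of replicate 2 was far above its replicates.

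Among the families, the H4 sum had the Holoclone to Paraclone ratio nearest to 1. *H4C14* was at 54.3, 71.1 and 78.3 TPM in Panc89 Holoclone and 68.2, 48.7 and 57.1 TPM in Panc89 Paraclone libraries, overlapping groups (log2 fold change 0.22 ± 0.19 (SE), adjusted p = 0.395). *H4C12* was at 33.5, 35.4 and 40.6 TPM and 64.6, 55.8 and 45.0 TPM (log2 fold change -0.57 ± 0.25 (SE), adjusted p = 0.0939). Its groups did not overlap, yet the difference missed the threshold. *H4C15* and *H4C8* had log2 fold changes of 0.50 and -0.40 and did not pass. The low *H4C4* was the sole H4 gene called, at 1.33, 1.59 and 1.87 TPM in Holoclone and 10.3, 2.25 and 5.31 TPM in Paraclone libraries (log2 fold change -1.25 ± 0.37 (SE), adjusted p = 0.015), and this call was lost in 3 of 15 alternative fits.

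In Panc1 cells, 4 of the 41 tested members were higher and none was lower in Holoclone than in Paraclone cells, where 27.4% of all tested genes were higher and 9.97% lower (37.3% in either direction), so the share of members called was below that of all genes. The median log2 fold change was 0.08 over the tested members and 0.19 over all tested genes. *H2AC8* was at 3.49, 4.04 and 2.82 TPM in Panc1 Holoclone and 0.964, 1.37 and 1.13 TPM in Panc1 Paraclone libraries (log2 fold change 1.04 ± 0.28 (SE), adjusted p = 0.00731). *H4C8* was at 5.15, 3.00 and 4.63 TPM and 2.02, 1.78 and 1.16 TPM (log2 fold change 0.98 ± 0.22 (SE), adjusted p = 0.00229). *H2BC4* and *H2AC11* had smaller changes, with log2 fold changes of 0.78 and 0.47 (adjusted p = 0.0426 and 0.0179). For all 4 genes the groups did not overlap, which adds no support, since the genes were named for passing the test on the same values. With another scaling of the libraries (median of ratios), which moved the median of all genes to 0.00 and the shares of all genes called to 15.1% higher and 16.6% lower, *H2AC8* and *H4C8* remained and the other 2 were lost. The same 2 genes were called without the Panc1 Holoclone library of replicate 2 or the Panc1 Paraclone library of replicate 3. In these fits, 25.2% and 23.8% of all genes were higher. *H2BC12* was at 244, 113 and 197 TPM in Holoclone and 135, 178 and 169 TPM in Paraclone libraries, overlapping (log2 fold change 0.14 ± 0.27 (SE), adjusted p = 0.746).

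The Holoclone against Paraclone change itself was then compared between the lines in an interaction term. It was lower in Panc89 for 14 tested members and higher for *H1-3*, where it was lower for 20.4% and higher for 14.8% of all tested genes. The median was -0.68 log2 units over the tested members and -0.11 over all genes. *H2BC4* differed by -3.34 log2 units, since it was 0.78 in Panc1 and -2.56 in Panc89 (adjusted p = 1.32e-05). *H2AC8* differed by -3.25 log2 units, with 1.04 in Panc1 and -2.21 in Panc89 (adjusted p = 1.19e-05). For these 2 genes, the clone with the higher level was the Holoclone in Panc1 and the Paraclone in Panc89. *H2AC19*, *H2BC5* and *H2BC7* differed by -2.75, -2.16 and -2.11 log2 units, while their changes in Panc1 did not pass the test. *H2BC7* and *H1-3* passed the filter through the Panc89 libraries only. They reached at most 0.658 and 0.172 TPM in the Panc1 clone libraries, so their differences largely repeat the change in Panc89. Among the 17 members at 1 TPM or more in all 4 groups, 10 had a lower change in Panc89 and none a higher one.

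To see which clone had moved away from the parental cells, each clone was set against them; both comparisons of a line share the parental libraries, so they are given side by side and not as independent results. In Panc89 Holoclone cells, 26 of the 41 tested members were lower than in parental Panc89 cells and none was higher, where 8.61% of all tested genes were lower and 16.1% higher. With median-of-ratios scaling these shares were 11.8% and 12.3%, and 28 members were lower. The median log2 fold change was -1.04, against 0.08 over all genes. In Panc89 Paraclone cells, 10 were lower and none was higher, where 10% of all tested genes were lower and 9.37% higher, with a median of -0.34 against -0.02 over all genes. The 26 genes included 3 of 4 tested H1, 6 of 10 H2A, 8 of 12 H2B, 5 of 9 H3 and 4 of 6 H4 genes. The 10 genes were *H1-3*, *H2AC13*, *H2AC17*, *H3C10*, *H3C14*, *H3C15*, *H4C8*, *H4C12*, *H4C14* and *H4C15*, with no H2B gene. Of these 10, 7 had under 50% unique 31-base words. Among the 29 tested members at 50% or more, 3 were lower, beside 10% of all tested genes. The count of 10 was 5 without the parental Panc89 library of replicate 1 or the Panc89 Paraclone library of replicate 3, 6 without parental replicate 3 and 16 without Paraclone replicate 2. In the same order, 6.4%, 7.19%, 6.3% and 15.3% of all genes were lower in these fits, so the calls of all genes moved too.

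*H2BC4* was at 87.2, 44.9 and 81.0 TPM in parental Panc89 libraries, with a log2 fold change of -2.49 in Holoclone and 0.07 in Paraclone cells (adjusted p = 1.16e-05 and 0.911). *H2BC8* changed by -2.08 log2 units in Holoclone and -0.66 in Paraclone cells, of which the first passed the test (adjusted p = 6.92e-05 and 0.126). *H2AC13* was lower in both, at 94.2, 33.1 and 55.2 TPM in parental, 15.5, 9.21 and 12.5 TPM in Holoclone and 18, 18.3 and 14.7 TPM in Paraclone libraries (log2 fold changes -2.11 and -1.66). *H3C10* followed the same order, with log2 fold changes of -2.01 and -1.40. *H4C12* and *H4C14* were also lower in both clones, by log2 fold changes of -1.57 and -0.73 in Holoclone and -1.0 and -0.95 in Paraclone cells. *H1-3* was lower in Paraclone cells (log2 fold change -1.98, adjusted p = 6.88e-05). In Holoclone cells its log2 fold change was -0.75 (adjusted p = 0.0476), a call lost in 9 of 15 alternative fits, with adjusted p up to 0.24.

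In Panc1 Holoclone cells, no tested member differed from parental Panc1 cells in limma with trend, where 5.87% of all tested genes were higher and 5.06% lower. At an unadjusted p under 0.05 there were 2 members, *H2AC8* and *H2BC17*, and limma without trend also called 0. In Panc1 Paraclone cells, 3 members were lower than in parental Panc1 cells and none was higher, where 21.3% of all tested genes were lower and 7.31% higher. These were *H2BC21* (log2 fold change -1.13 ± 0.35 (SE), adjusted p = 0.0251), *H4C8* (log2 fold change -0.81 ± 0.22 (SE), adjusted p = 0.0115) and *H2AC11* (log2 fold change -0.52 ± 0.14 (SE), adjusted p = 0.0129). *H2BC21* was at 8.44, 3.58 and 13.1 TPM in parental and 2.13, 2.90 and 3.73 TPM in Paraclone libraries. These groups overlapped, and without the parental library of replicate 1 only *H2AC11* was called, beside 14.6% of all genes lower and 5.85% higher. With median-of-ratios scaling, all genes were called lower in 10.9% and higher in 12.4% of cases, and *H4C8* alone remained among the members.

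The genes of head to head pairs were then looked at together. *H2BC4* and *H2AC6* were both higher in parental Panc89 than in parental Panc1 cells and both lower in Panc89 Holoclone than in Panc89 Paraclone cells, as were *H2BC8* and *H2AC8*. The pair of *H2BC13* and *H2AC13* was uneven, with *H2AC13* between 9.21 and 94.2 TPM in the Panc89 libraries and *H2BC13* at most 1.64 TPM in any library, and *H2AC13* and *H2AC14* share most of their sequence. Likewise, *H2BC12* was the most abundant member, while *H2AC12*, 251 bases away, reached at most 0.583 TPM. *H2AC11* and *H2BC11* parted between the lines. *H2AC11* was at 3.57 ± 0.161 TPM in parental Panc1 and 0.317 ± 0.0983 TPM in parental Panc89 cells, and *H2BC11* at 10.8 ± 0.478 TPM and 9.76 ± 2.91 TPM. A shared upstream sequence thus did not go with equal polyadenylated transcript levels in these pairs.

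**Figure D4:**
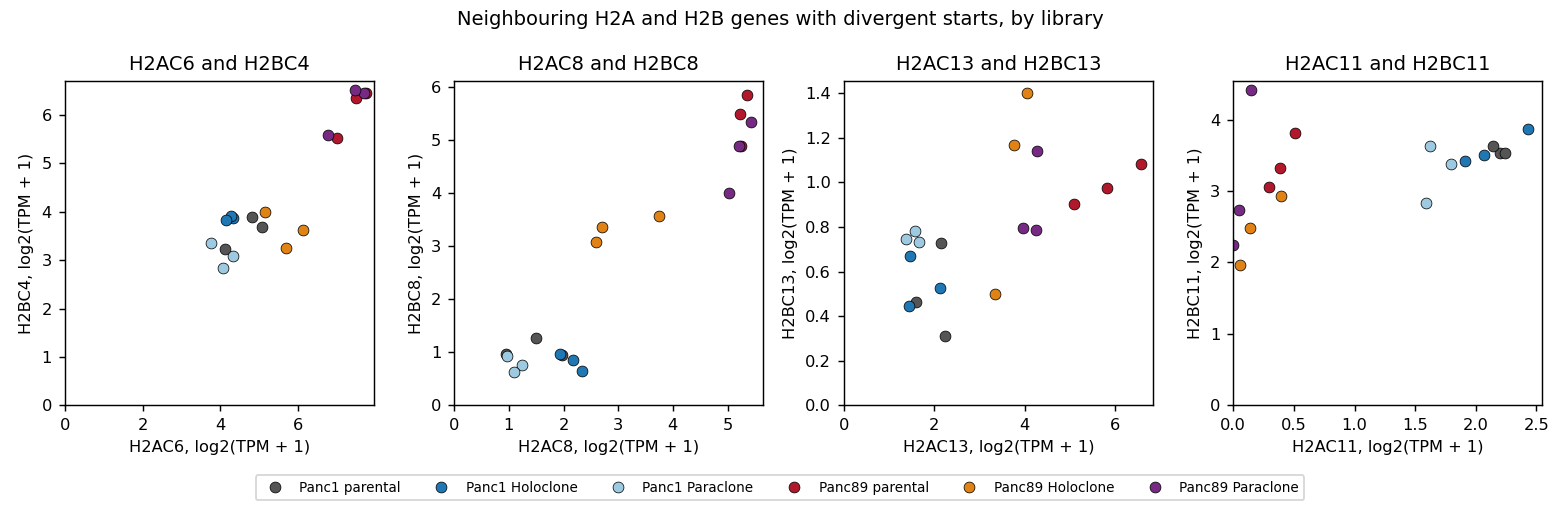
Levels of 4 head to head pairs in the 18 libraries, with the H2A gene on the x axis and the H2B gene on the y axis, both as log2(TPM + 1) and each panel with its own scale; points are libraries colored by group. *H2AC6* with *H2BC4* and *H2AC8* with *H2BC8* are high together in parental Panc89 and Panc89 Paraclone libraries, *H2BC13* stays low where *H2AC13* is high, and *H2AC11* is high in Panc1 libraries only while *H2BC11* is at similar levels in both lines.

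Members of both gene clusters went the same way between the parental lines. On chromosome 6, 28 of 32 tested members were higher and 1 was lower, and on chromosome 1, 8 of 9 were higher. Of the 41 tested members, 21 had passed the filter through the Panc89 libraries only. Other genes in and within 1000000 bases of the clusters are called neighbors here. Around the chromosome 6 cluster, 13 of 38 tested neighbors were higher and 15 lower, and around that of chromosome 1, 6 of 31 were higher and 11 lower. Of all tested genes, 27.5% were higher and 38.5% lower. Between Panc89 Holoclone and Panc89 Paraclone cells, 13 members on chromosome 6 were lower and 1 higher, and 1 of the 38 neighbors was lower and 3 were higher. On chromosome 1, 1 member was lower, and 7 of the 31 neighbors were lower and 4 higher. Here, 13.3% of all tested genes were lower and 22.4% higher. Whether the regions had a part in the histone differences was not tested. Among the 29 tested members with at least 50% of their 31-base words in no other gene, 24 were higher and 1 lower between the parental lines, and 11 were lower and 1 higher between the Panc89 clones.

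A list of 7 members for which polyadenylated forms are known holds *H1-2*, *H2AC6*, *H2BC4*, *H2BC5*, *H2BC12*, *H2BC21* and *H4C8*. All 7 were higher in parental Panc89 than in parental Panc1 cells (median log2 fold change 2.55), as were 36 of the 41 tested members and 27.5% of all tested genes. All 7 were lower in Panc89 Holoclone than in parental Panc89 cells (median -1.71), as were 26 of the 41 and 8.61% of all genes. Between the Panc89 clones, 5 were lower in Holoclone cells, the exceptions being *H2BC21* and *H4C8* (median -1.55), beside 14 of the 41 and 13.3% of all genes, and in Panc89 Paraclone against parental cells *H4C8* alone was lower. Their summed TPM was 1439, 1023 and 1250.1 in parental Panc89, 578, 360.2 and 448 in Panc89 Holoclone and 1418, 1157 and 1285 in Panc89 Paraclone libraries. The Holoclone libraries were below all others of the line. In Panc1 cells, the sums were 297, 183 and 281 in parental, 371, 198 and 307 in Holoclone and 215, 275 and 268 in Paraclone libraries, and overlapped.

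Genes that act on histone transcripts were tested as a list of 19, covering transcription, end processing and decay. Between the parental lines 6 were higher and 4 lower in Panc89, beside 27.5% and 38.5% of all tested genes, among them *SYMPK*, a scaffold of the cleavage complex (log2 fold change 1.49), *TUT7* and *TUT4*, which add uridines to RNA before decay (0.90 and -1.31), and *LSM10*, a protein of the U7 particle that cuts histone transcripts (-1.51). *SLBP* did not pass (log2 fold change -0.16, adjusted p = 0.625). In Panc89 Holoclone against Panc89 Paraclone cells 5 were higher and 1 lower, near the 22.4% and 13.3% of all tested genes, with a median of 0.12 against 0.09 over all genes. Here *NPAT*, the activator of histone transcription, was higher by 1.05 log2 units, *NCBP1*, a cap-binding protein, by 0.94 and *CPSF2*, a cleavage factor, by 0.59, and *TUT7* was at -0.55. *NPAT* was at 7.84 ± 0.523 TPM in parental Panc89, 9.36 ± 2.06 TPM in Panc89 Holoclone and 3.97 ± 0.747 TPM in Panc89 Paraclone cells. Whether its level had a part in the histone levels was not tested. *SLBP* did not pass here either (log2 fold change 0.16, adjusted p = 0.691). In Panc1 Holoclone against Panc1 Paraclone cells 7 were higher and 1 lower, beside 27.4% and 9.97% of all tested genes. *CPSF2*, *CASP8AP2* and *HINFP* were higher by 0.90, 0.85 and 0.78 log2 units and *LSM10* was at -0.44. *NPAT* was higher between the Panc1 clones as well (0.60 log2 units), and *HINFP* between the Panc89 clones (0.35). *HINFP*, an activator of H4 genes, was also lower in Panc89 Paraclone than in parental Panc89 cells (-0.64 log2 units), as were *NPAT* (-0.84) and *NCBP1* (-0.56).

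Of 39 tested genes of S phase and DNA replication, 4 were higher and 2 lower in parental Panc89 than in parental Panc1 cells, beside 27.5% and 38.5% of all tested genes. The median log2 fold change was 0.15 for the list, 2.21 for the members and -0.18 for all genes. *CDC6*, *GINS2* and *PRIM1*, which act in starting replication, were higher by 1.76, 1.73 and 1.42 log2 units, and *TIPIN* was at -0.63. Between Panc89 Holoclone and Panc89 Paraclone cells, the median was 0.66 for the list and -0.61 for the members. Without the Panc89 Holoclone library of replicate 1, the list's median was 0.15 and the ratio of its summed TPM, Holoclone over Paraclone, was 0.963 in place of 1.52. Without the Panc89 Paraclone library of replicate 2 these were 1.26 and 2.83, so single libraries set the size of this difference. With all libraries, *HELLS*, *TIPIN* and *POLD3* were higher by 1.70, 1.05 and 0.93 log2 units and no gene was lower. Of all tested genes, 22.4% were higher and 13.3% lower. The sums of this list given above varied widely between passages, so few calls do not show that these genes were unchanged. In Panc1 Holoclone against Panc1 Paraclone cells, *RPA2* alone was higher (0.56 log2 units) and none was lower, beside 27.4% and 9.97% of all tested genes. The median was 0.62 for the list, 0.08 for the members and 0.19 for all genes.

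Of 10 tested histone chaperones and acetylating factors, none was higher and 4 were lower in parental Panc89 than in parental Panc1 cells, a share near the 38.5% of all tested genes that were lower. The 4 were *ASF1A*, *HAT1*, *RBBP7* and *RBBP4* (log2 fold changes -1.25, -1.15, -1.07 and -0.88). In Holoclone against Paraclone cells, *ASF1A*, which hands H3 and H4 to the assembly factors, was higher in both Panc1 (0.84 log2 units) and Panc89 (0.88), *HAT1* in Panc1 (1.08) and *HIRA* in Panc89 (0.48). Of 11 tested replication-independent variants, most of which are made as polyadenylated RNA throughout the cell cycle, 3 were higher and 2 lower in parental Panc89 cells. *H2AJ* was at 1.00 and *H2AZ2* at -1.49 log2 units. In Holoclone against Paraclone cells, 3 variants were higher and none was lower in either line, near the shares of all tested genes that were higher, 27.4% in Panc1 and 22.4% in Panc89. *MACROH2A2*, a variant linked to silent chromatin, was at 45.7 ± 8.58 TPM in Panc1 Holoclone and 0.629 ± 0.160 TPM in Panc1 Paraclone cells, and at 31 ± 4.23 TPM in Panc89 Holoclone and 8.75 ± 3.19 TPM in Panc89 Paraclone cells (log2 fold changes 4.83 and 1.76, adjusted p = 1.4e-10 and 1.14e-05). *H1-10* was higher in both lines as well (1.27 and 0.91 log2 units), and *H3-3B* in Panc1 (1.33).

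RNAs that normally carry no poly(A) tail were looked at for carry-over past the poly(A) selection, a use that was not checked. Of 15 tested, none was higher and 1 was lower in parental Panc89 than in parental Panc1 cells (*SCARNA5*, log2 fold change -0.97), beside 27.5% and 38.5% of all tested genes. None was higher and 1 was lower in Panc89 Holoclone than in Panc89 Paraclone cells (*RPPH1*, -1.12), beside 22.4% and 13.3% of all tested genes. Their summed TPM was 234, 223 and 239 in parental Panc1, 287, 331 and 296 in parental Panc89, 242, 328 and 437 in Panc89 Holoclone and 236, 401 and 447 in Panc89 Paraclone libraries. The parental Panc89 sums were above those of parental Panc1, and the sums of the Panc89 clones overlapped. In Panc1 cells, the sums were 510.4, 316 and 476 in Holoclone and 374, 520.0 and 473 in Paraclone libraries, all above every parental Panc1 library. *RN7SL1* and *RN7SL2*, RNAs of the signal recognition particle, were higher than in parental Panc1 cells in Holoclone (1.06 and 1.13 log2 units) and in Paraclone cells (1.14 and 1.30), and *RMRP* in Paraclone cells (3.40). Whether carry-over had a part in the histone differences was not tested.

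**Figure D5:**
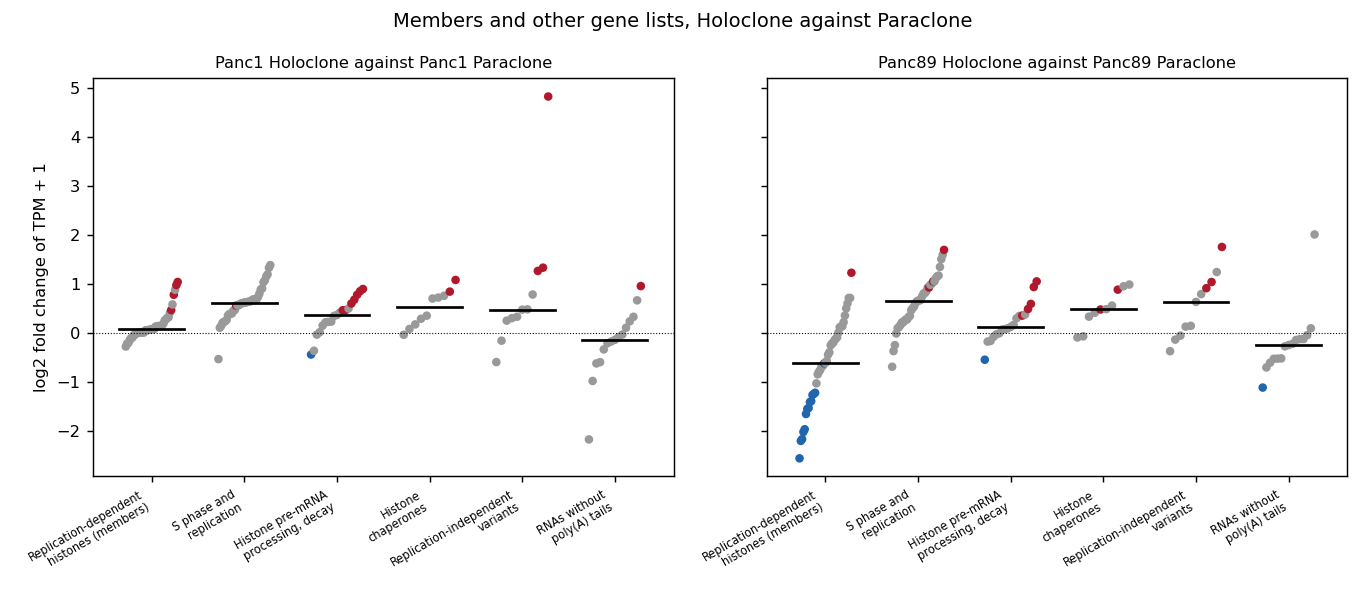
Log2 fold changes of TPM + 1 of the tested genes of 6 lists, Holoclone against Paraclone, in Panc1 (left) and Panc89 cells (right). Each point is a gene, the bar is the list's median, and red is higher, blue lower and gray an adjusted p of 0.05 or above; in Panc89 the members have a median of -0.61 with 14 lower, whereas the S phase list has a median of 0.66, which is 0.15 without Panc89 Holoclone replicate 1.

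Markers of other cell types stayed low, with *PTPRC*, *CD3E*, *HBB* and *ALB* (leukocytes, T cells, erythroid cells and liver) at 1.72 TPM or less in every library. *PECAM1*, an endothelial marker, was the exception, at 60.1 ± 6.12 TPM in parental Panc89, 0.856 ± 0.354 TPM in Panc89 Holoclone and 4.54 ± 2.5 TPM in Panc89 Paraclone cells. In parental Panc1 libraries it reached at most 0.126 TPM. *PECAM1* was thus high with the histone sums in parental Panc89 but not in Panc89 Paraclone cells, and its part in the results was not tested.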

How the data were processed

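Total RNA was isolated from 3 passages of each of the 6 cell variants, and libraries were made with a stranded mRNA kit. Per the labels and the study's methods, the authors quantified reads with kallisto 0.46.1 against Ensembl GRCh38 release 106 and summarized them per gene as scaled TPM. The values the authors deposited were log2 of TPM + 1 for 40266 gene symbols, which were turned back into TPM here. Library sums were between 985339 and 988066 TPM, and read depth is not given in the sources used here, so no counting interval could be made. Each library had been scaled to the same total, so that a group with more RNA per cell cannot be seen.

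A gene was tested where 3 or more of the 18 libraries had 1 TPM or more (16093 genes), in R 4.3.3 with limma 3.58.1 (lmFit, eBayes with trend) on log2(TPM + 1), with 1 mean for each of 6 groups, in 8 comparisons, and p-values were adjusted after Benjamini and Hochberg within each comparison. The count-based fit named in the study's methods needs read counts and was not made. The script was tested on simulated data. Named members reached a group mean of 5 TPM or were among the 5 strongest calls in either direction of a comparison. Up to 4 called genes of each list were named. Exceptions were chosen after their values were seen, such as *H1-4*, *H2BC13*, *H4C4* and *H2BC17*. So were *NPAT* between the Panc1 clones and *HINFP* between the Panc89 clones. The members and lists were chosen with earlier results of these data known. The values of 1 gene of the lists are not reported here. Replicate numbers did not pair the libraries. Coordinates are from GENCODE 44 and promoter windows from RefSeq; k-mers of 31 bases were counted over GENCODE 44 transcripts, another annotation release than the authors'. Alternatives were another pseudocount, other filters, other scalings, a fit of the compared groups alone, a replicate block, eBayes without trend, leaving out each replicate, and, added after seeing the data, counting only members with mostly unique sequence and leaving out single libraries for the S phase list.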

Additional observations from a re-analysis of the deposited data

Results flagged for a closer look

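For 15 of the 41 tested members, the change from Paraclone to Holoclone cells differed between Panc89 and Panc1 by the interaction term of limma. This share is near the 35.1% of all tested genes called in either direction. By direction, 14 members were lower and 1 higher, beside 20.4% and 14.8% of all tested genes. The difference of the log2 fold changes, Panc89 minus Panc1, was -3.34 for *H2BC4*, -3.25 for *H2AC8*, -2.75 for *H2AC19*, -2.16 for *H2BC5*, -2.11 for *H2BC7*, -1.85 for *H2AC6* and -1.66 for *H4C4*. It was -1.64 for *H2BC21*, -1.54 for *H1-6*, -1.46 for *H2BC8*, -1.37 for *H4C8*, -1.36 for *H2BC12*, -1.33 for *H3C6* and -1.27 for *H1-2*. *H1-3* alone was positive, at 1.17. *H1-3*, *H1-6*, *H2BC7*, *H2BC8* and *H4C4* passed the filter through the Panc89 libraries only. Their low levels in Panc1 limit the fitted change there, so their differences largely repeat the change in Panc89. Among the 17 members at 1 TPM or more in all 4 groups, 10 had a lower change in Panc89 and none a higher one. For *H4C8*, the change in Panc1 passed its test and that in Panc89 did not, and for *H2BC21* neither did. The call for *H3C6* was lost in 12 of 21 alternative fits, that for *H1-3* in 4 and that for *H4C4* in 2. The clones picked and the line they came from cannot be told apart in this difference.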

How the results depend on the processing

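Between the parental lines, the 37 calls became 24 among the 25 members with at least 5 TPM in 3 libraries, all higher. For Panc1 Holoclone against Panc1 Paraclone, the count of 4 was 2 with median-of-ratios and with upper quartile scaling, and 2 to 4 when 1 replicate was left out. Without 1 replicate, 29.5% to 36% of all genes were called. For Panc1 Paraclone against parental Panc1, the count of 3 was 1 with either scaling and in a fit of the 2 groups alone, and 1 to 4 without 1 replicate. Without 1 replicate, 19.3% to 26.7% of all genes were called. For Panc1 Holoclone against parental Panc1, testing every gene with any value above 0 gave 1 call in place of 0. For Panc89 Paraclone against parental Panc89, the count of 10 was 6 with the groups alone and 5 to 16 without 1 replicate. Of all genes, 13.9% were called with the groups alone and 12.9% to 26.3% without 1 replicate. The counts without 1 replicate were 36 to 37 for the parental lines, 12 to 21 for Panc89 Holoclone against Paraclone and 13 to 20 for the interaction. They were 0 to 0 for Panc1 Holoclone against parental and 18 to 27 for Panc89 Holoclone against parental cells. In the same order, the shares of all genes called were 61.3% to 63.7%, 28.2% to 41% and 29.7% to 37.5%. For the last 2 they were 6.39% to 9.54% and 18.1% to 26.5%. A count of only the 29 tested members with at least 50% unique 31-base words was chosen after seeing the data. It left 17 of 26 calls for Panc89 Holoclone and 3 of 10 for Panc89 Paraclone against parental cells. Of all tested genes, 8.61% and 10% were lower in these comparisons. Among the 12 tested members under 50%, 9 and 7 were lower. Most calls of the Paraclone comparison thus lay in members whose reads cannot be divided with certainty. No called member changed sign under these alternatives, and the causes of the other changes were not tested. Summed TPM of the members was 1907 to 2351 in parental Panc89, 698 to 816 in Panc89 Holoclone and 1767 to 2033 in Panc89 Paraclone cells without 1 replicate.

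Replicate numbers did not pair the libraries, as the 18 pairs with the same number within a line had correlations of their deviations between -0.318 and 0.190 (mean -0.0418). With a replicate block inside each line, the counts were 35 for the parental lines, 5 for Panc1 and 15 for Panc89 Holoclone against Paraclone and 14 for the interaction. Against parental cells, they were 0 and 3 for the Panc1 clones and 24 and 8 for the Panc89 Holoclone and Paraclone cells. In the same order, the shares of all genes called were 56.7%, 34.5%, 32.4%, 31.7%, 8.71%, 24.7%, 21.2% and 16.7%. Without read counts, precision at low levels could not be judged.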
